A study of Mus musculus with 5 samples.

Results

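The collagen genes are the 44 genes whose single platform symbol has the form Col, a number, the letter a and a number, among 19938 named genes on the array. They were compared between wild-type and Mkl2-/- mouse embryonic stem cells, and 42 of them had a single array feature. All 44 matched the RefSeq gene table, and the brightest feature was used for Col6a5 and Col6a6, which had several. They fall into 11 fibrillar genes, 6 basement membrane genes (type IV) and 27 others.

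Collagens are trimers of chains that carry a repeated glycine motif and wind into a triple helix. Fibrillar types form the cables of connective tissue, type IV forms the sheet inside basement membranes, and the remaining types sit on fibrils, span cell membranes or build small networks. In the early embryo type IV collagen is laid down with laminin under epithelia and by extraembryonic endoderm, whereas type I is a typical product of fibroblasts.

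The cells were undifferentiated and of the C57BL/6 strain, and 2 wild-type cultures and 3 Mkl2-/- cultures, grown independently, were hybridised to 1 array each. Mkl2, now called Mrtfb, encodes a coactivator of serum response factor (SRF). All cultures grew with serum and LIF on mouse embryonic fibroblast feeders, which were left to attach to a dish before the stem cells were collected. The labels do not say how many lines or clones stand behind each genotype, so p-values measure the spread between these cultures. Values are log2 intensities, and a difference is Mkl2-/- minus wild type.

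Mkl2 itself was read on the brightest of its 3 features. It gave 9.80 and 9.75 on the wild-type arrays and 9.32, 9.32 and 9.09 on the Mkl2-/- arrays, so its groups did not overlap. Its difference was -0.53 ± 0.09 (moderated SE, n = 2 and 3; limma adjusted p = 0.048), and the sources used here do not say whether this feature lies in the deleted part. Olfactory receptor genes (1027 of them) served as a set taken to be silent here, and a background level of 7.30 was read off at the 95th percentile of their mean signals. All 15 stem cell markers lay above that level on every array, with Pou5f1 at 12.48 to 12.54 (difference 0.03, limma adjusted p = 0.404). Of these markers Nanog fell by 1.14 and Klf4 by 0.69 on the log2 scale (limma adjusted p = 0.0082 and 0.0067), Utf1, Dppa4, Dppa5a and Fgf4 rose, and 9 did not pass. The nearest 12 genes above background on each side had a median difference of -0.36 for Klf4 and -0.02 for Nanog. Over all genes, 9.27% passed a limma adjusted p of 0.05, 6.28% lower and 2.99% higher in Mkl2-/-.

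The promoters of Col4a1 and Col4a2 are shown because these chains build the same trimer and are transcribed in opposite directions from starts 21 bases apart. Col1a2 and Serpinh1 are shown as a type I chain and as the collagen chaperone whose transcript fell. RefSeq windows (GRCm38.p6) of 250 bases before to 50 bases after a gene's start were at hand for 35 of the 44 genes. The windows of Col4a1 (chr8:11312777-11313076, minus strand) and Col4a2 (chr8:11312555-11312854, plus strand) share 78 bases, set in capitals below, read on opposite strands. In Col1a2 (chr6:4505368-4505667, plus strand) and Serpinh1 (chr7:99353190-99353489, minus strand) capitals mark GGGCGG and CCAAT on either strand.
Col4a1: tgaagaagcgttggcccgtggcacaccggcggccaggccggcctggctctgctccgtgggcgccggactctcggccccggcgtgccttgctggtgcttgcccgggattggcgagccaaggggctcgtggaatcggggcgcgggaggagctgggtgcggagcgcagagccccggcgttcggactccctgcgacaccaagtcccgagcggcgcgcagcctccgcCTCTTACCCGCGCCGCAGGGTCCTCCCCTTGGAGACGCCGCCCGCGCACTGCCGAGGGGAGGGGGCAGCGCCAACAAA
Col4a2: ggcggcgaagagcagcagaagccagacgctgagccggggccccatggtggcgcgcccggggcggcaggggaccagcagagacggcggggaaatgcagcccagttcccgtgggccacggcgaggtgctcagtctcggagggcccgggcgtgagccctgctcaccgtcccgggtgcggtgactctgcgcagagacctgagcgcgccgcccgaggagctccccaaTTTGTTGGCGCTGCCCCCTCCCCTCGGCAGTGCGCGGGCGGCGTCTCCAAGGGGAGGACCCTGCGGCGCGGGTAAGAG
Col1a2: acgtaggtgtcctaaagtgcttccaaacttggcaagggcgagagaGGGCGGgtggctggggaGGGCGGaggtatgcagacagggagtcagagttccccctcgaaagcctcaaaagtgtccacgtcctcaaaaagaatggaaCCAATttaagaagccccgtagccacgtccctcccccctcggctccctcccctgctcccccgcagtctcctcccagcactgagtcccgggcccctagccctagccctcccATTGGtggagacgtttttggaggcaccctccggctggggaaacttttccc
Serpinh1: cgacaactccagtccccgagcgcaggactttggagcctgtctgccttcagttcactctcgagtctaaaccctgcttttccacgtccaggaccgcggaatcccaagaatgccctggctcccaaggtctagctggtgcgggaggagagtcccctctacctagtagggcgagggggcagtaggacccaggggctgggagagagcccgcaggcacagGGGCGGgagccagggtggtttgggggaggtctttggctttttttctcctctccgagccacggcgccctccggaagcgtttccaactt

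The sequence to which SRF binds, the CArG box, was found in 1 of 38 collagen windows (2.63%), against 1.63% of all 32851 windows. The one match, in capitals, lies in Col6a4 (chr9:106096868-106096927, minus strand), where the gene's own difference was 0.105 and did not pass the test.
Col6a4: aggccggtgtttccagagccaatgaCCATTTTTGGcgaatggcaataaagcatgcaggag
The GC box GGGCGG stood in 60.5% of collagen windows and 35.7% of all windows, and the median GC content was 59.8% and 52.7%. CCAAT stood in 34.2% of collagen windows against 37.4%, and TATAAA in 13.2% against 13.6%, each on either strand. The motifs were searched separately, the windows of Col4a1 and Col4a2 overlap, and a match is a run of letters and no measured site.

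No collagen gene passed the test between the genotypes. Of the 44 members, 0 were lower and 0 were higher at a limma adjusted p of 0.05, against 6.28% and 2.99% of all genes. At an unadjusted p under 0.05 there was 1 member, Col1a1, where 23.0% of all genes had such a p. The differences ran from -0.29 (Col1a1) to 0.25 (Col4a1), with a median of 0.06 over the members and 0.02 over all genes. The precision was enough to bound them: the 95% interval of the difference lay inside a 1.5-fold change in either direction for 44 of 44 members, and for 93.5% of all genes. These intervals are for single genes and are not adjusted for the number of genes.

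**Figure D1:**
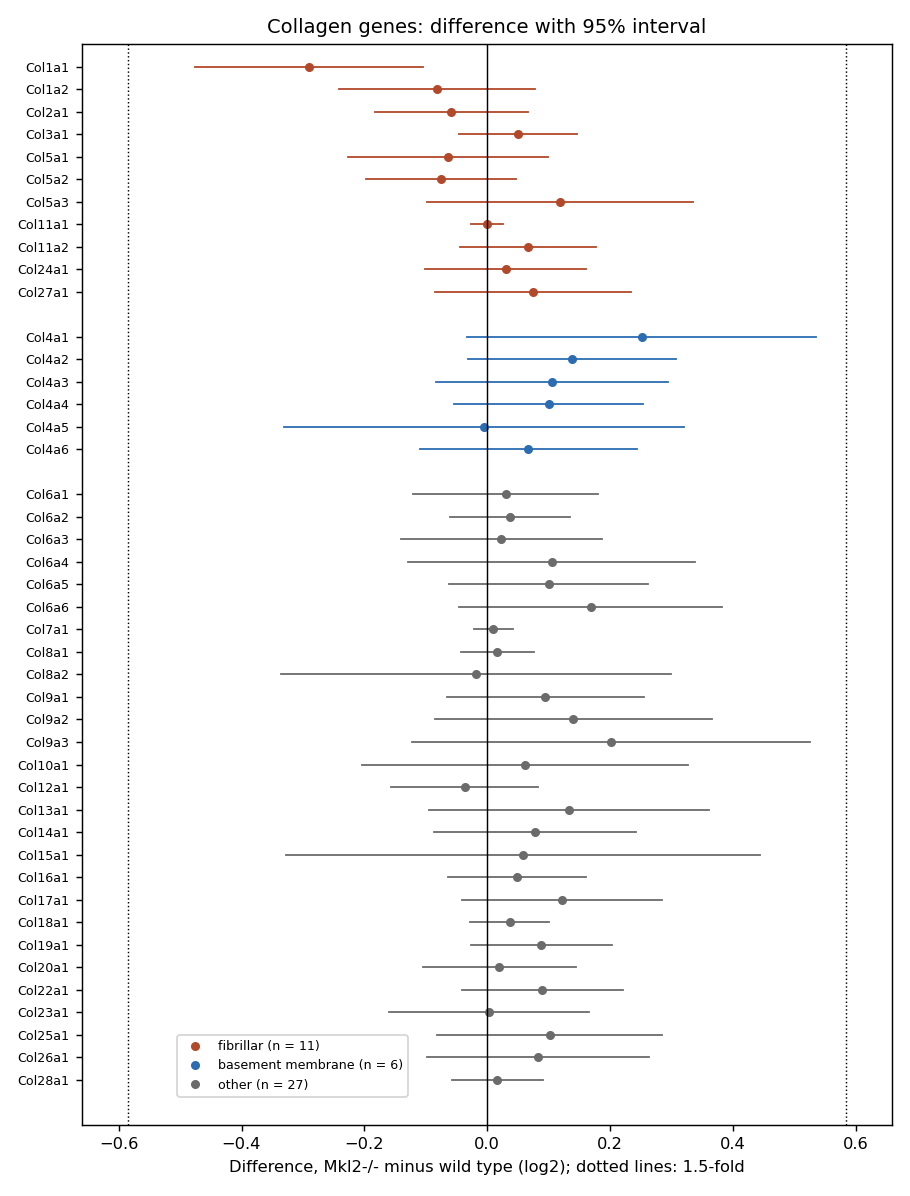
Difference between Mkl2-/- (n = 3) and wild-type (n = 2) arrays in log2 units for each of the 44 collagen genes, coloured by class; points are fitted differences, lines their 95% intervals, and dotted lines mark a 1.5-fold change. All intervals lie between the dotted lines, and Col1a1 is the one gene whose interval leaves out 0.

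Col1a1 had the lowest difference of the 44 collagen genes. It encodes the alpha1 chain of the main fibrillar collagen of skin and bone (chromosome 11) and read 9.42 and 9.24 in wild type against 9.06, 8.99 and 9.07 in the Mkl2-/- samples. Every Mkl2-/- array lay below both wild-type arrays. The difference was -0.29 ± 0.07 (moderated SE, n = 2 and 3), a 1.22-fold lower mean, with a 95% interval of -0.48 to -0.10 and a limma adjusted p of 0.090. It passed after cyclic loess normalization (limma adjusted p = 0.035) and when genes with no spread were left out (limma adjusted p = 0.038), so this call depended on the processing. Without wild-type replicate 1 the difference was -0.20, and without wild-type replicate 2 it was -0.38.

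Col1a2, which encodes the partner chain of Col1a1 (chromosome 6), read 8.76 and 8.71 in wild type against 8.71, 8.56 and 8.69 in the Mkl2-/- samples. Here the groups touched at 8.71, and the difference was -0.08 ± 0.06 (limma adjusted p = 0.413).

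Other fibrillar genes differed in both directions and by little. Col3a1, which encodes a fibrillar chain of soft tissue, read 8.17 and 8.07 in wild type and 8.17 on all 3 Mkl2-/- arrays. Its difference of 0.05 (limma adjusted p = 0.408) was 0.10 without wild-type replicate 1 and 0.00 without wild-type replicate 2, so it rested on replicate 2. Of the type V chains, which seed and thin type I fibrils, Col5a1 differed by -0.06, Col5a2 by -0.08 and Col5a3 by 0.12. The cartilage chains Col2a1 (-0.06), Col11a2 (0.07) and Col11a1 were as close to 0, and Col11a1 read 8.02 on all 5 arrays. Col24a1 (0.03) and Col27a1 (0.08), which encode less abundant fibrillar chains, completed the class. Of the 11 genes 5 lay below 0, 5 above and 1 at 0, and their median was 0.00.

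**Figure D2:**
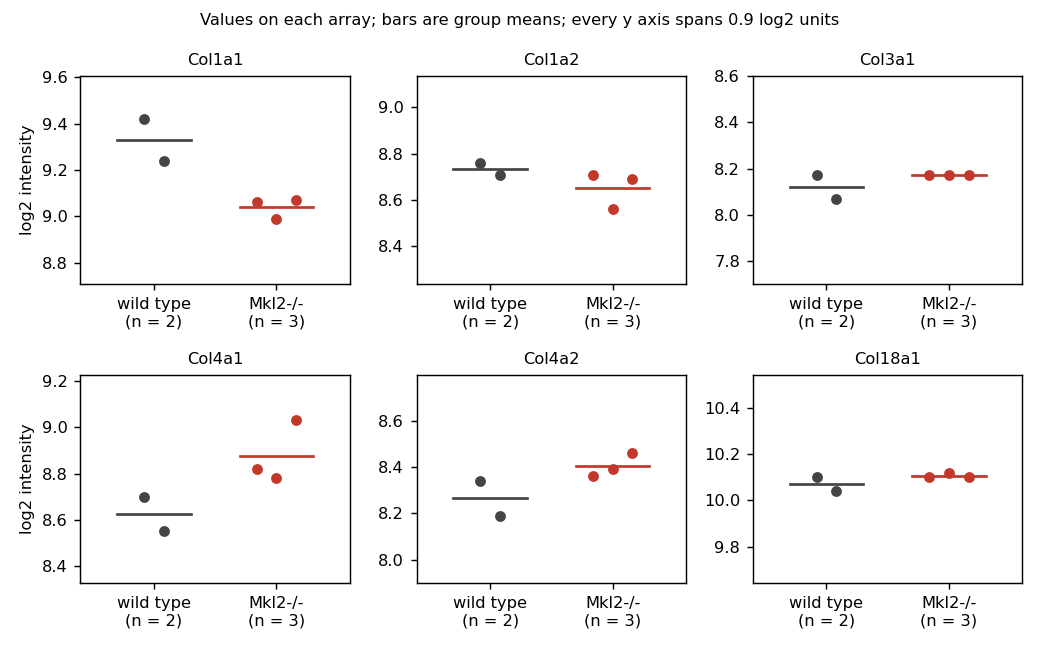
log2 intensity on each array for 6 collagen genes, wild type (n = 2) and Mkl2-/- (n = 3); bars are group means and every y axis spans 0.9 log2 units. Col1a1 is lower on all 3 Mkl2-/- arrays, Col4a1 and Col4a2 are higher on all 3, and Col1a2, Col3a1 and Col18a1 overlap.

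None of the 6 basement membrane collagens passed the test. Col4a1, which with Col4a2 makes the common type IV trimer, read 8.70 and 8.55 in wild type against 8.82, 8.78 and 9.03 in the Mkl2-/- samples. Col4a2 read 8.34 and 8.19 in wild type against 8.36, 8.39 and 8.46 in the Mkl2-/- samples. For both genes every Mkl2-/- array lay above both wild-type arrays, for Col4a2 by as little as 0.02. Col4a1 differed by 0.25 ± 0.10 (moderated SE, 95% interval -0.03 to 0.54; limma adjusted p = 0.269) and Col4a2 by 0.14 ± 0.06 (interval -0.03 to 0.31; limma adjusted p = 0.307).

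The chains of the tissue-restricted type IV trimers lay closer to background. Col4a3 read 7.61 and 7.54 in wild type against 7.63, 7.62 and 7.79 in the Mkl2-/- samples, a difference of 0.105 with no overlap but a gap of 0.01 only. Col4a4, its neighbour on chromosome 1, differed by 0.10, and the X-linked neighbours Col4a5 and Col4a6 differed by -0.005 and 0.07. Over the 6 genes the median was 0.10, with 5 above 0 and 1 below, where 59.2% of all genes lay above 0. Without wild-type replicate 2 this median was 0.06. In all, 7 collagen genes did not overlap between the groups, where 33.6% of all genes did not. Of these, 6 lay higher on every Mkl2-/- array, where 16.9% of all genes did, and 1 lay lower on every one, where 16.7% did. Besides Col4a1, Col4a2 and Col4a3 the higher ones were Col6a6, Col9a1 and Col9a3.

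Among the other collagens 25 of 27 lay above 0, with a median of 0.06. Type VI collagen forms beaded filaments around cells, and its core chains Col6a1 (0.03), Col6a2 (0.04) and Col6a3 (0.02) hardly differed. The alternative type VI chains, neighbours on chromosome 9, gave 0.105 for Col6a4, 0.10 for Col6a5 and 0.17 for Col6a6. Col6a6 read 8.43 and 8.22 in wild type against 8.51, 8.44 and 8.53 in the Mkl2-/- samples, a gap of 0.01 between the groups (limma adjusted p = 0.321). A dimmer feature of Col6a6 differed by 0.005, and so did the dimmer feature of Col6a5; both lay below background.

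Fibril-associated collagens, which decorate the surface of fibrils, were led by the 3 chains of type IX. Col9a3 read 8.83 and 8.60 in wild type against 8.84, 8.84 and 9.07 in the Mkl2-/- samples, a difference of 0.20 (limma adjusted p = 0.393) for which wild-type replicate 2 and Mkl2-/- replicate 3 stood apart. Col9a2 differed by 0.14 and Col9a1 by 0.095. The remaining members were Col14a1 (0.08), Col16a1 (0.05), Col19a1 (0.09), Col20a1 (0.02) and Col22a1 (0.09), and Col12a1, which was below background on all 5 arrays. Their median was 0.09 over 9 genes.

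Col18a1, whose chain carries endostatin at its end and lies in basement membranes, read 10.10 and 10.04 in wild type against 10.10, 10.12 and 10.10 in the Mkl2-/- samples. Its difference was 0.04 ± 0.02 with a 95% interval of -0.03 to 0.10, and its level was far above background. The related Col15a1 differed by 0.06 ± 0.14. The transmembrane collagens Col13a1 (0.13), Col17a1 (0.12), Col25a1 (0.10) and Col23a1 (0.00) had a median of 0.11. The network-forming Col8a1 (0.02), Col8a2 (-0.02) and Col10a1 (0.06), the anchoring fibril chain Col7a1 (0.01) and Col26a1 (0.08) did not pass either. Col28a1, like Col12a1, lay below background on every array.

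Many of these differences followed single arrays. Wild-type replicate 2 held the lowest value, ties included, for 28 of 44 collagen genes (63.6%, against 42.0% of all genes), and Mkl2-/- replicate 3 the highest for 35 (79.5%, against 36.8%). Both were true of 24 members, 54.5%, against 24.5% of all genes. Among genes above background these shares were 33.3%, 26.6% and 17.6%, so the pattern was more frequent among dimmer genes. The shares of all genes are not matched for signal, and 26 members lay within 1 log2 unit above background. Whether the pattern is particular to collagens was not tested. The median deviation of the members from their gene means was -0.06 on wild-type replicate 2 and 0.09 on Mkl2-/- replicate 3, where all genes had -0.008 and 0.004. Wild-type replicate 1 and Mkl2-/- replicate 1 had the same value to 2 decimals for 19 members (43.2%, against 27.5%). The median over the 44 members was 0.06 with all arrays. It was 0.03 without wild-type replicate 2 and 0.03 without Mkl2-/- replicate 3, 0.05 without Mkl2-/- replicate 1, 0.09 without wild-type replicate 1 and 0.0975 without Mkl2-/- replicate 2; 9 of 44 members changed sign among the fits without 1 array.

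**Figure D3:**
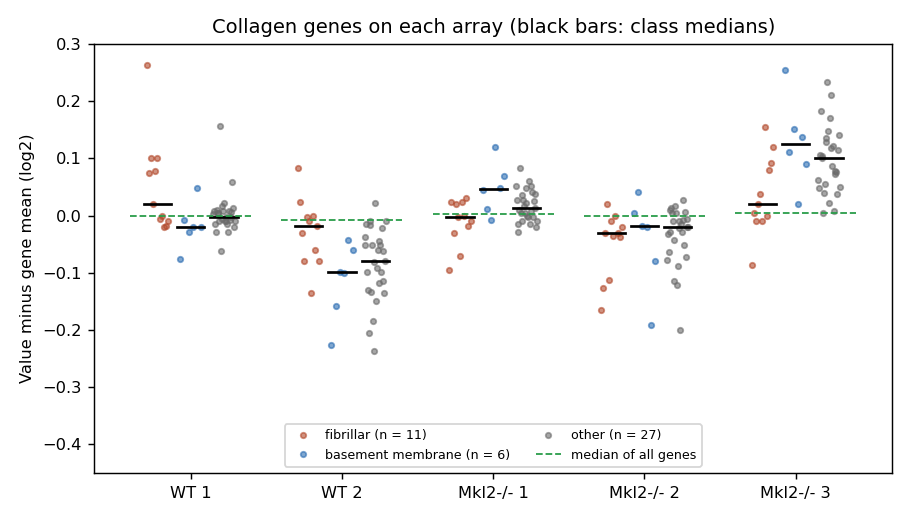
Value of each collagen gene minus its mean over the 5 arrays, in log2 units, by array and class; black bars are class medians and the dashed line is the median of all genes. The basement membrane and other collagens are low on wild-type replicate 2 and high on Mkl2-/- replicate 3, while the medians of all genes stay near 0.

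Most members lay near the background level. The means of 42 genes were above it, 26 of them by less than 1 log2 unit, and 39 genes were above it on every array. For the members near or below background, the intervals describe the array signal, part of which is background.

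Position on the chromosome moved with some results. Collagen genes lie on 15 chromosomes, 7 of them on chromosome 1, where the 750 other genes above background had a median difference of -0.17. The 7 chromosome 1 members (Col3a1, Col5a2, Col4a3, Col4a4, Col6a3, Col9a1 and Col19a1) had a median of 0.09, and all 7 lay above their chromosome's median. All 7 had means within 1 log2 unit above background (7.36 to 8.15), so part of their signal is background. Genes above background had a median mean of 9.13. Around Col3a1 and Col5a2, which are neighbours, 24 genes were taken: the nearest 12 above background on each side, collagens left out. Their median was -0.29, while Col3a1 and Col5a2 differed by 0.05 and -0.08. Across the family 36 of 44 members lay above the median of their own 24 neighbours, and 8 below. The share of all genes above their own neighbours was not computed. The neighbours were not matched for signal: all were above background, while the members had a median mean of 8.10. Of genes above background 53.2% had a difference above 0, against 59.2% of all genes, so dimmer genes leaned upward more. Subtracting the chromosome's median raised the type IV median from 0.10 to 0.195. Col4a1 and Col4a2 on chromosome 8, where that median was 0.00, did not move. The shift of the median came from Col4a3 and Col4a4 on chromosome 1, which lay closer to background than Col4a1 and Col4a2. Col4a5 and Col4a6 on chromosome X stayed below the median before and after. The part of position in these differences was not tested.

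**Figure D4:**
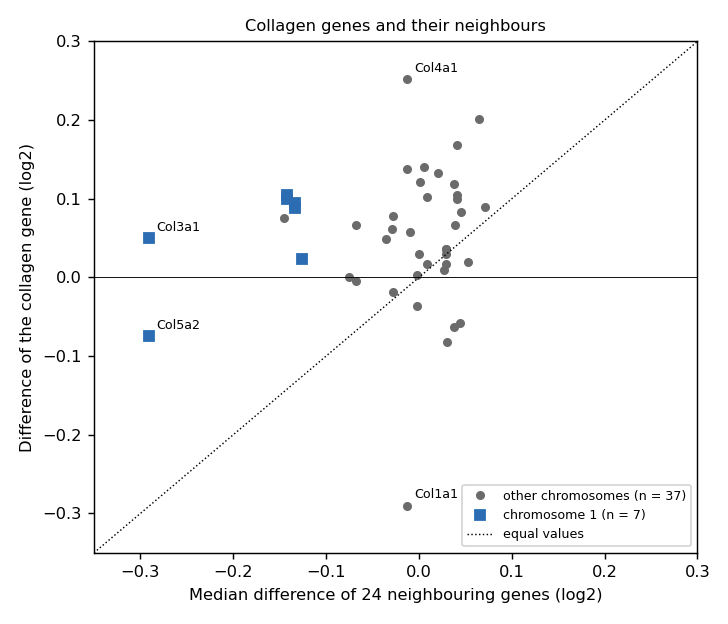
Difference of each collagen gene (vertical axis, log2) against the median difference of its 24 neighbours (horizontal axis, log2). Neighbours are the nearest 12 genes above background on each side, collagens left out, and chromosome 1 members are squares. Col3a1 and Col5a2 lie far above the dotted line of equal values, and Col1a1 far below it.

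Some enzymes, chaperones and receptors that act on collagens passed the same test. Of 49 listed genes 45 were measured, and 8 fell, 1 rose and 36 did not pass. Their median difference was -0.02, against 0.02 over all genes. The share that passed was 6.28% for lower and 2.99% for higher among all genes.

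Genes for folding and export held 4 of the falls among 9 measured, with a median of -0.22. Serpinh1 encodes HSP47, the chaperone that binds the collagen triple helix in the endoplasmic reticulum. It read 9.27 and 9.32 in wild type against 8.69, 8.64 and 8.78 in the Mkl2-/- samples, well apart. It fell 1.51-fold (-0.59 ± 0.05, moderated SE; limma adjusted p = 0.014). Tmem38b, an endoplasmic reticulum ion channel gene needed for normal type I collagen, read 9.29 and 9.28 in wild type against 8.76, 8.70 and 8.55 in the Mkl2-/- samples and fell 1.53-fold (-0.615 ± 0.07; limma adjusted p = 0.023). Its 2 features disagreed, and the mean of both gave -0.25 (limma adjusted p = 0.13). Fkbp14, a prolyl isomerase gene, fell by 0.23 and Creb3l1, a transcription factor gene that acts on Col1a1 in bone, fell by 0.12 on the log2 scale. Fkbp14 lay close to the background of 7.30, at 7.66 and 7.56 in wild type against 7.41, 7.36 and 7.38 in the Mkl2-/- samples (limma adjusted p = 0.048). The Creb3l1 call was lost after quantile normalization (-0.08, limma adjusted p = 0.23), and both calls were lost with array weights (limma adjusted p = 0.052 for each). No member rose at this threshold. Sec24d, which encodes a subunit of the coat of export vesicles, lay higher on all 3 Mkl2-/- arrays (0.22, limma adjusted p = 0.064) and passed as higher after quantile normalization (0.013), after cyclic loess (0.022), among genes above background (0.040) and with genes of no spread left out (0.032).

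Of the 3 lysyl hydroxylase genes, whose enzymes prepare chains for crosslinking and sugar addition, Plod1 fell, Plod2 rose and Plod3 (0.08, limma adjusted p = 0.218) did not pass. Plod1 read 9.95 and 10.02 in wild type against 9.64, 9.53 and 9.52 in the Mkl2-/- samples and fell 1.34-fold (-0.42 ± 0.05; limma adjusted p = 0.024). Plod2 read 10.16 and 10.23 in wild type against 10.46, 10.53 and 10.45 in the Mkl2-/- samples and rose 1.22-fold (0.285 ± 0.04; limma adjusted p = 0.030). These were the 2 of 15 chain modification genes that passed, and the list's median was 0.03. P3h2, a prolyl 3-hydroxylase gene, differed by -0.48 (limma adjusted p = 0.053), and Crtap, which encodes a partner of the related enzyme P3h1, by 0.32 (limma adjusted p = 0.068). Neither passed, but both did after quantile normalization (limma adjusted p = 0.012 and 0.0073) and after cyclic loess.

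Of 12 measured genes for propeptide removal and crosslinking, 2 fell and none rose, and the list's median was -0.09. Bmp1, the procollagen C-proteinase gene, read 10.21 and 10.19 in wild type against 9.78, 9.90 and 9.86 in the Mkl2-/- samples and fell 1.28-fold (-0.35 ± 0.04; limma adjusted p = 0.024). Pxdn encodes peroxidasin, which crosslinks type IV collagen. It read 10.72 and 10.75 in wild type against 10.53, 10.51 and 10.52 in the Mkl2-/- samples and fell 1.16-fold (-0.215 ± 0.015; limma adjusted p = 0.011). The lysyl oxidase family gene Loxl4 (-0.28) and Pcolce (-0.14), an enhancer of Bmp1, did not pass, though both did after cyclic loess (limma adjusted p = 0.020 and 0.044).

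Among 9 measured receptor and uptake genes only Itgb1, the beta1 integrin chain shared by the collagen-binding integrins, passed. It read 11.25 and 11.26 in wild type against 11.04, 11.05 and 11.06 in the Mkl2-/- samples and fell 1.15-fold (-0.205 ± 0.01; limma adjusted p = 0.0082). Itga1, which pairs with it, read 7.46 and 7.43 in wild type and was below background on all 3 Mkl2-/- arrays (difference -0.48, limma adjusted p = 0.060), and it passed after quantile normalization (limma adjusted p = 0.011). Mrc2, a receptor that takes up collagen, differed by -0.09 and the collagen receptor kinase gene Ddr1 by 0.03. Of the 9 calls among genes that act on collagens, 0 were kept without wild-type replicate 2, 2 without wild-type replicate 1 (Itgb1 and Pxdn), and 1, 1 and 3 without Mkl2-/- replicates 1, 2 and 3; Itgb1 was kept in each of the last 3. These fits have fewer residual degrees of freedom, and no gene in the whole table passed without wild-type replicate 2.

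**Figure D5:**
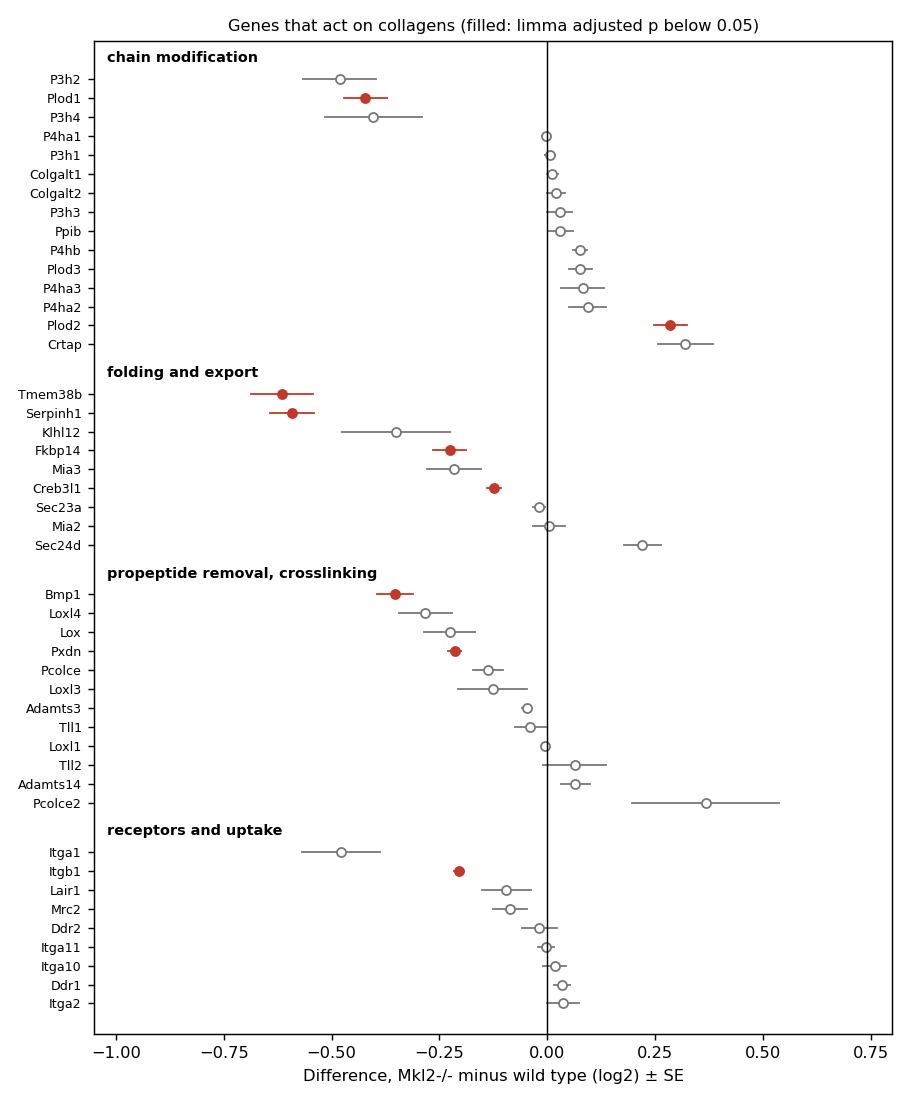
Difference between Mkl2-/- (n = 3) and wild-type (n = 2) arrays in log2 units, with moderated SE, for 45 genes that act on collagens, in 4 lists; filled points passed a limma adjusted p of 0.05. The 8 filled points left of 0 include Serpinh1, Tmem38b and Plod1, and Plod2 is the one filled point to the right.

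In bulk RNA, fewer cells of a type and less RNA per cell cannot be told apart, which touches Col1a1 first, since feeder fibroblasts make type I collagen. Of 19 measured fibroblast markers that are not collagens, 4 fell (Igfbp4 by 0.99, Has2 by 0.76, Pdgfrb by 0.28 and Mmp2 by 0.26 on the log2 scale), Twist1 rose by 0.31 and 14 did not pass, where 6.28% of all genes fell and 2.99% rose. Their summed linear intensity was 5225 and 5266 in wild type and 4250 to 4356 in Mkl2-/-, and their median difference was -0.08. This sum is weighted towards its brightest members, Mmp2, Igfbp4 and Has2, which are among the markers that fell. Of the 19 markers, 10 differed by less than 0.1 in either direction. Lum, Postn, Fap, Dpt and Ogn were below background on all 5 arrays. The part of feeder cells in the Col1a1 difference was not tested.

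Endoderm markers were read as well, since extraembryonic endoderm makes type IV collagen. Of 16 such markers 5 rose (Cubn by 2.87, Lama1 by 1.45, Gata6 by 0.935, Gata4 by 0.93 and Pdgfra by 0.75 on the log2 scale) and 2 fell (Lrp2 by 0.57 and Sparc by 0.24), where 2.99% and 6.28% of all genes did, and 9 did not pass. Their mean level was 8.28 and 8.21 in wild type against 8.64, 8.68 and 8.79 in the Mkl2-/- samples, and their summed linear intensity, 12994 to 13072 in wild type and 12585 to 13861 in Mkl2-/-, overlapped. Lama1, the laminin chain that shares basement membranes with type IV collagen, read 8.42 and 8.32 in wild type against 9.71, 9.83 and 9.93 in the Mkl2-/- samples (1.45 ± 0.08; limma adjusted p = 0.0079). Ttr, Afp and Thbd were below background on all arrays. Whether cells of this kind had a part in the Col4a1 and Col4a2 differences was not tested.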

How the data were processed

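Total RNA of 5 cultures was measured on Affymetrix whole-transcript arrays. The authors deposited log2 intensities; the submitters' processing notes name RMA and Expression Console 1.1, and neither further settings nor the genome build are stated in the sources used here. Values run from 3.39 to 14.26, array medians from 7.94 to 7.98, and 0 columns were left unused. A platform annotation gave 1 symbol to 21789 of 35556 features, several to 1621 and none to 12146; per gene the brightest feature was kept.

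Groups were compared with limma 3.58.1 (lmFit and eBayes, R 4.3.3; 3 residual and 0.885 prior degrees of freedom) on all 19938 genes, with Benjamini-Hochberg adjustment, both directions, and a threshold of 0.05. SE are moderated, as are intervals. The replicates were identical within both groups for 776 genes. The fit was tested on simulated data. The number of arrays limits the precision. Figures were drawn with matplotlib 3.10.9.

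The members, classes, lists and alternatives were chosen with earlier results of these data known, and the members are no independent evidence of direction. Named were collagens above background (and the 2 below it, since they are so few) and, in each list of genes that act on collagens, those that passed and, up to 4, those with the smallest p; markers named are those that passed or lay below background, and Pou5f1, chosen as the defining stem cell marker after its values were seen; Sec24d was also named after its values were seen. Listed but not measured under 1 symbol were Fkbp10, Adamts2, Loxl2, Gp6 and Fbn1. Alternatives are given in the closing section; leaving out genes with no spread was added after seeing the data.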

Additional observations from a re-analysis of the deposited data

How the results depend on the processing

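Among collagen genes, 1 was lower after cyclic loess and 1 was lower with the 776 genes of no spread left out (Col1a1 in each). Otherwise the counts of lower and of higher members stayed at 0, apart from a pass of Col3a1 as higher without wild-type replicate 1. That pass had no spread between replicates behind it. A single wild-type array remained in that fit, and Col3a1 read 8.17 on all 3 Mkl2-/- arrays. With all features tested the count was 0. The class medians moved by less than the spread between replicate arrays under every alternative run except subtraction of the chromosome's median, which took the type IV median from 0.10 to 0.195. This is a loose criterion. The spread was 0.044 for fibrillar, 0.082 for type IV and 0.045 for other collagens, against medians of 0.00, 0.10 and 0.06. Within it the type IV median ran from 0.06 to 0.14 and that of the other collagens from 0.03 to 0.107. For genes that act on collagens, the 8 falls became 14 after cyclic loess, 12 after quantile normalization and 11 with genes of no spread left out. They became 10 among genes above background, 9 with a trended and robust prior, and 6 with array weights. With 1 Mkl2-/- array left out they ranged from 1 to 3. Calls in the whole table moved in the same direction from 1848 of 19938 genes. There were 2949 after cyclic loess, 2906 after quantile normalization and 2643 of 19162 with genes of no spread left out. There were 2424 of 13721 among genes above background, 1943 with the trended and robust prior and 1807 with array weights. With 1 Mkl2-/- array left out there were 333 to 448. The 1 rise became 3 after quantile normalization, after cyclic loess, among genes above background and with genes of no spread left out, 2 with array weights, and 0 to 1 with 1 array left out. The replicate number as a block left 0 falls, 0 rises and 0 calls in the whole table. That fit has fewer residual degrees of freedom, and Mkl2-/- replicate 3, the only array with its number, adds nothing to the difference. The Col1a1 difference, for instance, was -0.305 both there and without Mkl2-/- replicate 3. The loss of calls therefore cannot show whether a block matters. In that fit 3 collagen genes had an unadjusted limma p under 0.05, and the share of all genes was not counted. The labels do not say whether equal numbers pair the samples. Deviations from the group means correlated at -0.26 for number 1 and 0.18 for number 2. With 2 wild-type arrays the deviations of that group mirror each other, so these values cannot decide whether the samples pair. The cause was not tested where counts changed, apart from the fewer arrays or genes entering the fit. No result named changed sign while passing the test. Dim signals limit what can be said of 26 members within 1 log2 unit above background and 2 below it.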
